A study of Homo sapiens with 6 samples.

Results

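The enzymes that make serine and carry its one-carbon unit through the folate cycle were followed in HFL-1, an established fibroblast line from human fetal lung. The set held 10 genes, chosen by symbol out of the 23355 genes with a symbol in the table of read counts. These were PHGDH, PSAT1, PSPH, SHMT1 and MTHFD1, whose products work in the cytosol, and SHMT2, MTHFD1L, MTHFD2, ALDH1L2 and PCK2, whose products work in mitochondria. All 10 genes were found and all 10 passed the filter on low counts. The control group received a non-targeting siRNA (siNTC), and the other groups received siTAZ #1 or siTAZ #2, siRNAs against TAZ, a transcriptional coactivator of the Hippo pathway. All groups were transfected with the same reagent and grew on plastic in medium with serum. RNA was extracted at 48 h, and each group has 2 libraries. The siRNAs act for a short time on a pool of cells of a single line, and the siTAZ groups share the same siNTC libraries as their control.

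WWTR1, the gene that encodes TAZ, fell with both siRNAs. Its level was 132 and 131 CPM (a gene's counts scaled to a common library size by TMM) in the siNTC libraries, 26.4 and 28.4 with siTAZ #1 and 46.1 and 43.1 with siTAZ #2. The log2 fold change against siNTC was -2.26 ± 0.10 (SE, n = 2) with siTAZ #1 and -1.56 ± 0.10 (SE, n = 2) with siTAZ #2 (FDR = 0.00062 and 0.00068 by edgeR's quasi-likelihood test). Libraries held between 15648055 and 32078188 counts. In replicate 2 of siTAZ #1, the deepest library, the genes from RANGAP1 on chromosome 22 to the end of chromosome Y took 0.246% of the counts, against 3.58% to 3.74% in the other libraries. None of the 10 genes lies in that stretch. The 9 fibroblast markers were all detected, with a summed level of 34878 to 34966 CPM in siNTC, 23174 to 24049 with siTAZ #1 and 27180 to 28939 with siTAZ #2. Most of that sum was COL1A1, COL1A2, COL3A1 and VIM, and the markers did not move together. With siTAZ #1, 4 were called lower and 2 higher (9.78% and 10.8% of all genes tested). With siTAZ #2, 5 were called lower and 2 higher (14.4% and 14.1% of all). The summed levels of the epithelial markers (0.71 to 2.99 CPM) and of the endothelial markers (0.761 to 3.38 CPM) were far lower, and KRT5 and NKX2-1 were at 0 in at least 1 library. The 3 leukocyte markers summed to 73.8 to 75.2 CPM in siNTC, 68.9 to 75.6 with siTAZ #1 and 37.9 to 48.4 with siTAZ #2. Nearly all of this was CD68 (37.8 to 75.4 CPM), a lysosomal protein of macrophages that other cells also make, which fell with siTAZ #2 (log2 fold change -0.79, FDR = 0.012). PTPRC and CD3E were at 0 in at least 1 library and had at most 3 counts. The part of CD68-expressing cells in the results for siTAZ #2 was not tested.

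Serine is made from a glycolytic intermediate by PHGDH, PSAT1 and PSPH in turn. Serine hydroxymethyltransferases then split serine into glycine and a one-carbon unit held on tetrahydrofolate. In proliferating cells the mitochondrial branch mostly oxidizes this unit and exports it as formate, and the cytosolic branch spends it on purines, thymidylate and methyl groups. Fibroblasts also need glycine in quantity, since collagen is rich in it. Many of these genes are known targets of ATF4, the transcription factor of the amino acid response, which binds C/EBP-ATF response elements.

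The stretch before the start site was available for 7 of the 10 genes in RefSeq (GRCh38.p14), and 3 of these are shown. PCK2 is given as the gene that fell most with siTAZ #1, PHGDH as the entry point of serine synthesis, and MTHFD1L as the gene whose promoter held a match to a searched motif. Each run is the 250 bases before the first listed start, on the gene's strand, from chr14:24094061-24094310 for PCK2, chr1:119711684-119711933 for PHGDH and chr6:150866236-150866485 for MTHFD1L, all on the plus strand. Capitals mark a C/EBP-ATF response element.
PCK2: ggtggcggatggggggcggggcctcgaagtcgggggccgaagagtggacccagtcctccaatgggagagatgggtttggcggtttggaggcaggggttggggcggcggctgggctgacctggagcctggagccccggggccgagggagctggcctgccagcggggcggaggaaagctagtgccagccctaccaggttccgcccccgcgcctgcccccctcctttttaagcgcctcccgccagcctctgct
PHGDH: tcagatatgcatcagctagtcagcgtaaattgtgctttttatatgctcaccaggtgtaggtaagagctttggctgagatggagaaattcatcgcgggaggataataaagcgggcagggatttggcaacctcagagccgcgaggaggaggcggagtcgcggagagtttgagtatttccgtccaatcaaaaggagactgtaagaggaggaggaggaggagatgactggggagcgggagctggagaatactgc
MTHFD1L: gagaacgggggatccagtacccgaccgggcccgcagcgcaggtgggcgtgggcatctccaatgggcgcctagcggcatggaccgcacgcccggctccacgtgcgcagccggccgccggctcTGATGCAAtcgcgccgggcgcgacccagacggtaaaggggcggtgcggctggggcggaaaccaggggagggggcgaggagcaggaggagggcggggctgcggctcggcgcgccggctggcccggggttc
The motif letters TGATGNAA, searched on both strands, were found in 1 of the 7 promoters, as TGATGCAA in MTHFD1L, 129 to 122 bases before the start. These letters occur in 3.19% of 27305 promoters of the same length. The TEAD motif GGAATG, the motif of the factors through which TAZ reaches DNA, was found in 0 of the 7 promoters and in 11.9% of all. The AP-1 motif TGANTCA was found in 0 of the 7 and in 6.6% of all. A match describes letters in this window and was not tested as a binding site.

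In control cells the levels per length spanned a wide range. SHMT2, the mitochondrial serine hydroxymethyltransferase, was highest with a mean of 122 CPM per kilobase of transcript, followed by PHGDH with 116. PSAT1 (43.8), MTHFD1L (41.8), MTHFD2 (35.0), PCK2 (34.6), MTHFD1 (32.9) and PSPH (32.0) lay close together on this scale, and the siNTC libraries overlapped between PSAT1 and MTHFD1L, between MTHFD2 and PCK2 and between MTHFD1 and PSPH. ALDH1L2 had 18.2 and SHMT1, the cytosolic counterpart of SHMT2, had 6.08 CPM per kilobase. SHMT2 stood at percentile 96.0 of the genes tested and SHMT1 at percentile 42.5. The cytosolic counterparts of ALDH1L2 and PCK2 were almost without reads: ALDH1L1 had 0 to 10 counts per library and PCK1 had 0 to 4, so neither was tested.

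The question put to these genes was whether the enzymes fell together when TAZ was silenced, and whether the mitochondrial ones moved apart from the cytosolic ones. With siTAZ #2 all 10 fell, where 14.4% of the 14053 genes tested were called lower. For 8 of the 10 the level with siTAZ #2 was lower than with siNTC and also lower than with siTAZ #1, as it was for 8.43% of the genes tested. With siTAZ #1, 5 of the 10 fell, where 9.78% of the genes tested were called lower. None rose (0 also at an unadjusted p under 0.05, with DESeq2 and with edgeR's exact test), where 10.8% of the genes tested were called higher. These 5 were PHGDH, PSAT1, SHMT2, ALDH1L2 and PCK2, and they were called lower with both siRNAs, as were 3.74% of the genes tested. In 7 of the 10, each of the 4 siTAZ libraries lay below both controls, against 17.5% of the genes tested. ALDH1L2 and PCK2 also stand in the study's own list of genes lowered by both siRNAs, which was drawn from these libraries, so their calls are not independent evidence of direction. Without that pair, 3 of 8 genes were called lower with siTAZ #1 and 8 of 8 with siTAZ #2. In bulk RNA, fewer cells with a transcript and less of it per cell cannot be told apart. The count for siTAZ #1 rested on few libraries. Without either siNTC library it was 2 (ALDH1L2 and PCK2), without either siTAZ #1 library it was 6, and it was 7 when the genes of the stretch with missing counts were left out of the fit, which added PSPH and MTHFD2.

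**Figure D1:**
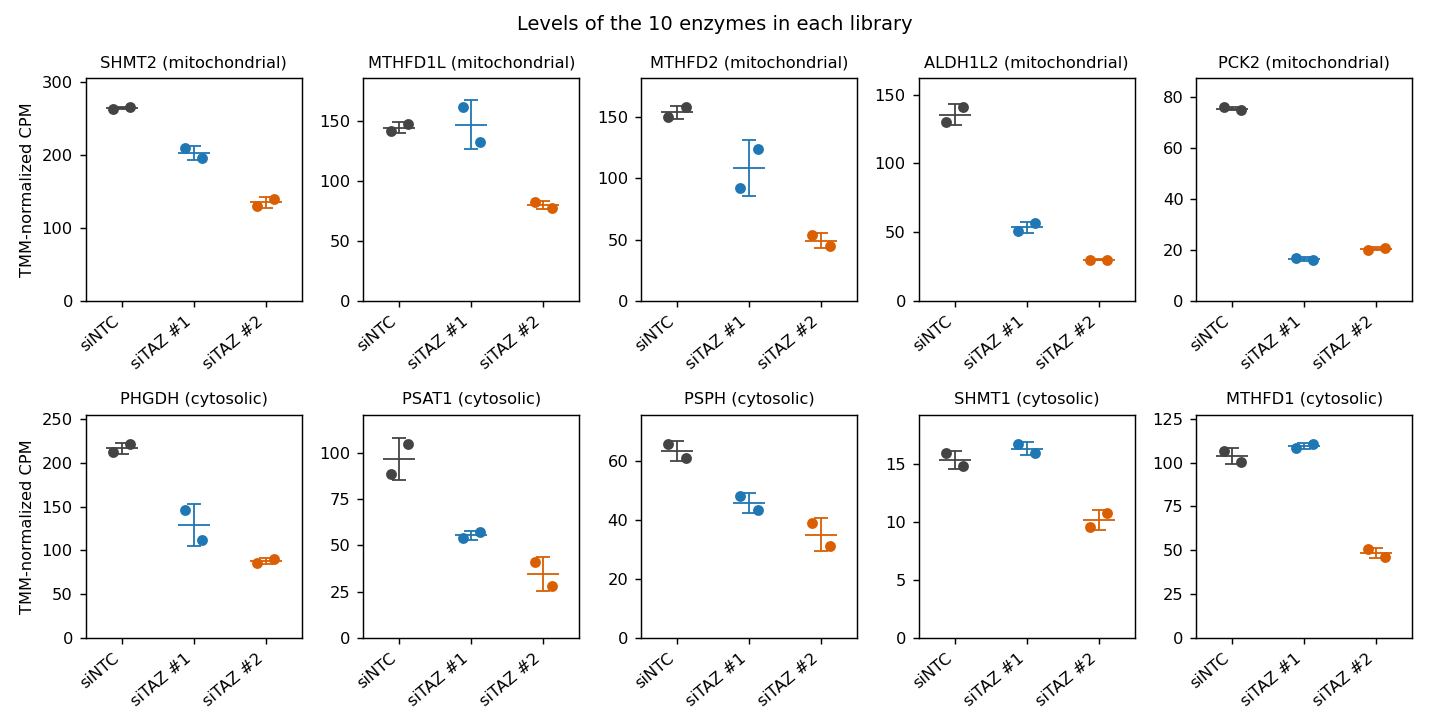
Level of each of the 10 genes in each of the 6 libraries, in TMM-normalized CPM on axes that start at 0, with 1 point per library, and the mean and SD of each group as a dash and bars. The siTAZ #2 points lie below both siNTC points for all 10 genes, while the siTAZ #1 points of SHMT1, MTHFD1 and MTHFD1L are not both below them.

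The serine synthesis genes fell in both conditions, except PSPH with siTAZ #1. PHGDH, which commits carbon to serine (chromosome 1, 120191034 to 120286841, plus strand, GRCh37), had 212 and 221 CPM with siNTC, 146 and 112 with siTAZ #1 and 85.6 and 90.4 with siTAZ #2. The groups did not overlap, and each siTAZ #1 library lay between siNTC and siTAZ #2. Its log2 fold change was -0.75 ± 0.14 (FDR = 0.016) with siTAZ #1 and -1.30 ± 0.14 (FDR = 0.0023) with siTAZ #2, which left 59.5% and 40.6% of the control level. PSAT1, the aminotransferase of the pathway (chromosome 9, 80912041 to 80945009, plus strand), went from 88.8 and 105 CPM to 53.8 and 57.3 with siTAZ #1 and 41.2 and 28.3 with siTAZ #2. All 4 siTAZ libraries were below both controls, and the pair of siTAZ #2 libraries was widely spread. The log2 fold changes were -0.80 ± 0.20 (FDR = 0.039) and -1.48 ± 0.20 (FDR = 0.0046). PSPH, the phosphatase of the last step (chromosome 7, 56078744 to 56119297, minus strand), had 65.7 and 60.8 CPM in siNTC, 48.1 and 43.3 with siTAZ #1 and 39.0 and 31.0 with siTAZ #2. It kept the same order without overlap. With siTAZ #2 it fell by 0.85 ± 0.15 on the log2 scale (FDR = 0.011), and with siTAZ #1 its log2 fold change of -0.47 ± 0.15 did not pass (FDR = 0.08, unadjusted 95% interval -0.84 to -0.10).
The PHGDH and PSAT1 calls with siTAZ #1 were lost without siNTC replicate 1 and without siNTC replicate 2. For PSPH, the siTAZ #1 value was called without siTAZ #1 replicate 1, and the siTAZ #2 call was lost without either siNTC library and without siTAZ #2 replicate 2.

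Among the mitochondrial folate enzymes, ALDH1L2 fell most. ALDH1L2, which oxidizes formyl-tetrahydrofolate to carbon dioxide and yields NADPH (chromosome 12, 105413562 to 105501421, minus strand), had 130 and 141 CPM with siNTC, 50.7 and 56.5 with siTAZ #1 and 29.8 and 30.2 with siTAZ #2. The 3 groups were well apart, with the replicates close together. Its log2 fold change was -1.34 ± 0.10 (FDR = 0.0013) with siTAZ #1 and -2.17 ± 0.11 (FDR = 0.0005) with siTAZ #2, so that 39.6% and 22.2% of the control level remained. MTHFD2, the dehydrogenase and cyclohydrolase of the mitochondrial branch (chromosome 2, 74413299 to 74444692, plus strand), had 150 and 158 CPM in siNTC, 92.3 and 124 with siTAZ #1 and 53.5 and 44.8 with siTAZ #2. Both siTAZ #1 libraries were below the controls but differed from each other. The log2 fold change of -0.51 ± 0.16 with siTAZ #1 did not pass (FDR = 0.082, interval -0.91 to -0.10), and it passed without siTAZ #1 replicate 2. With siTAZ #2 MTHFD2 fell by 1.65 ± 0.17 on the log2 scale (FDR = 0.002), to 31.9% of control.

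SHMT2, which feeds that branch with one-carbon units from serine (chromosome 12, 57623356 to 57628718, plus strand), had 263 and 265 CPM with siNTC, 210 and 197 with siTAZ #1 and 130 and 140 with siTAZ #2. Its controls agreed closely and no groups overlapped. The log2 fold change was small with siTAZ #1, at -0.38 ± 0.08 (FDR = 0.027), and larger with siTAZ #2, at -0.97 ± 0.08 (FDR = 0.0012). The siTAZ #1 call was lost without either siNTC library. MTHFD1L, which releases formate from formyl-tetrahydrofolate (chromosome 6, 151186815 to 151423023, plus strand), had 141 and 147 CPM in siNTC and 161 and 133 with siTAZ #1, 1 library on each side of the controls. Its log2 fold change with siTAZ #1 was 0.02 ± 0.11 (FDR = 0.9, interval -0.25 to 0.30), and its sign turned with upper-quartile scaling and without siNTC replicate 1 or siTAZ #1 replicate 1. With siTAZ #2 it had 82.5 and 77.9 CPM, a fall of 0.85 ± 0.11 on the log2 scale (FDR = 0.0043).

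PCK2 had the largest fall of the 10 genes with siTAZ #1. PCK2 encodes the mitochondrial enzyme that turns oxaloacetate into phosphoenolpyruvate, from which the precursor of serine can be made (chromosome 14, 24563262 to 24579807, plus strand). Its level was 75.8 and 74.8 CPM in siNTC, 17.0 and 16.0 with siTAZ #1 and 20.2 and 20.9 with siTAZ #2. It was the only 1 of the 10 whose siTAZ #1 libraries lay below its siTAZ #2 libraries, and its replicates were within a few percent of each other. The log2 fold changes were -2.19 ± 0.12 (FDR = 0.00065) and -1.87 ± 0.11 (FDR = 0.00064), to 21.9% and 27.3% of control. The siRNAs differed by -0.32 ± 0.11 on the log2 scale, which did not pass (FDR = 0.085, unadjusted 95% interval -0.59 to -0.04). WWTR1 itself was also lower with siTAZ #1 than with siTAZ #2, by 0.70 ± 0.10 on the log2 scale (FDR = 0.005).

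The cytosolic folate enzymes SHMT1 and MTHFD1 fell with siTAZ #2 and did not pass with siTAZ #1. SHMT1, which runs the serine hydroxymethyltransferase reaction in the cytosol (chromosome 17, 18231174 to 18266877, minus strand), had 15.9 and 14.8 CPM with siNTC, 16.7 and 15.9 with siTAZ #1 and 9.54 and 10.8 with siTAZ #2. The siTAZ #1 libraries were at or above the controls. MTHFD1, which carries 3 successive activities of the cytosolic cycle (chromosome 14, 64854749 to 64930175, plus strand), had 107 and 100 CPM in siNTC, 108 and 110 with siTAZ #1 and 50.4 and 46.4 with siTAZ #2. Here too both siTAZ #1 libraries were above both controls, by a margin within the test's error. The log2 fold changes with siTAZ #1 were 0.09 ± 0.16 for SHMT1 (FDR = 0.75, interval -0.32 to 0.49) and 0.08 ± 0.09 for MTHFD1 (FDR = 0.59, interval -0.14 to 0.30). With siTAZ #2, MTHFD1 fell by 1.10 ± 0.09 on the log2 scale (FDR = 0.0011) to 46.7% of control. SHMT1 fell by 0.60 ± 0.17 (FDR = 0.042), a call that was lost without either siNTC library or either siTAZ #2 library.

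**Figure D2:**
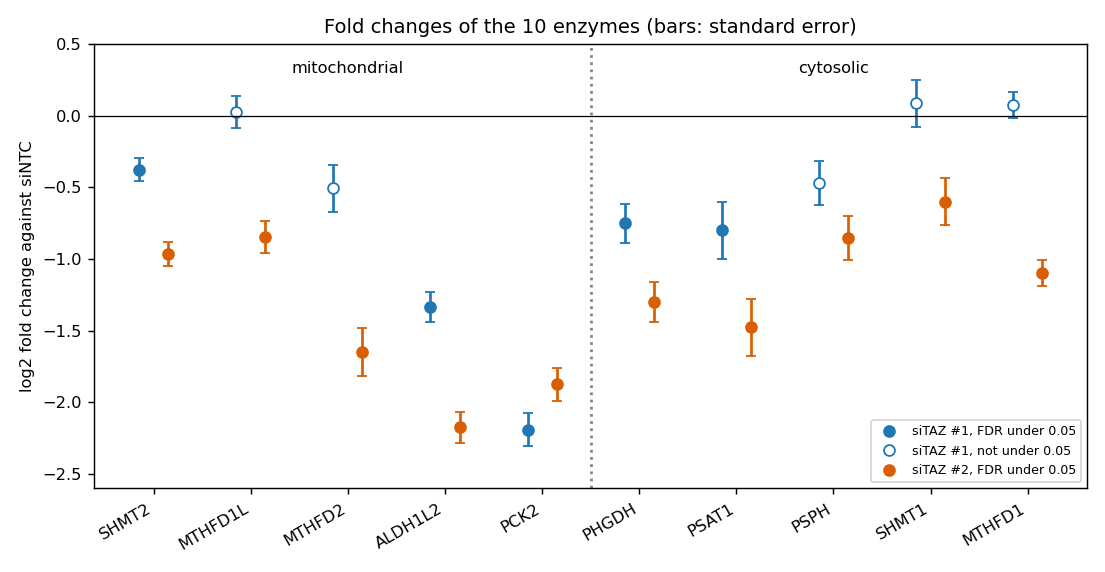
Log2 fold change against siNTC of each of the 10 genes with siTAZ #1 and siTAZ #2, with bars of 1 SE from edgeR's fit, filled points for an FDR under 0.05 and open points for the rest. PCK2 and ALDH1L2 lie lowest, and MTHFD1L, MTHFD1 and SHMT1 lie between 0.02 and 0.09 with siTAZ #1 but between -1.10 and -0.60 with siTAZ #2.

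Some of these genes overlap a neighbour. Exons of SHMT1, SHMT2, MTHFD1, MTHFD2 and ALDH1L2 overlap exons on the other strand, of SMCR8, NDUFA4L2, ZBTB25, SLC4A5 and both NOPCHAP1 and WASHC4. Among these neighbours, which are all in the count table, the longest overlap was 1324 bases, between MTHFD2 and SLC4A5, and the rest were 33 to 197. SHMT2, MTHFD1 and MTHFD2 also overlap annotated genes that the table does not list under a symbol, by up to 1556 bases for MTHFD1. The strand setting of the counting was not given, and how many reads fell in these stretches was not tested. PSAT1, PSPH, SHMT1, MTHFD1 and MTHFD2 also have annotated pseudogenes with near copies of their sequence.

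The mitochondrial and the cytosolic genes were set against each other by their medians. With siTAZ #1 the median log2 fold change was -0.51 over the 5 mitochondrial genes, of which 3 were called lower, and -0.47 over the 5 cytosolic genes, of which 2 were called lower. With siTAZ #2 the medians were -1.65 and -1.10, and 5 of 5 were called lower on both sides. The median over all genes tested was 0.02 with siTAZ #1 and 0.01 with siTAZ #2, and 9.78% and 14.4% of them were called lower. With siTAZ #1 the mitochondrial genes ran from -2.19 for PCK2 to 0.02 for MTHFD1L, and with siTAZ #2 from -2.17 for ALDH1L2 to -0.85 for MTHFD1L. ALDH1L2 and PCK2, the pair in the study's own list, are both on the mitochondrial side. The other mitochondrial genes, SHMT2, MTHFD1L and MTHFD2, had -0.38, 0.02 and -0.51 with siTAZ #1. With siTAZ #2 they had -0.97, -0.85 and -1.65, on both sides of the cytosolic median of -1.10. The lower mitochondrial median with siTAZ #2 therefore rested in part on that pair. These medians describe the lists and carry no test.

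Within single libraries, the paralog pairs gave a mixed picture. The ratio of SHMT2 to SHMT1 was 16.5 and 17.9 in siNTC, 12.6 and 12.4 with siTAZ #1 and 13.6 and 13.0 with siTAZ #2. All 4 siTAZ libraries were below both controls, so the mitochondrial form was lower relative to the cytosolic form in each of them. On the log2 scale the ratio was 3.64 ± 0.02 with siTAZ #1, 3.74 ± 0.05 with siTAZ #2 and 4.10 ± 0.08 in siNTC (SD, n = 2 each). Over the 4 siTAZ libraries the difference from siNTC was -0.41 (exact permutation test, two-sided, p = 0.0667). This test and those of the next ratios pool libraries of different siRNAs, which are not replicates of 1 condition. The log2 ratio of MTHFD2 to MTHFD1 was 0.49 and 0.65 in siNTC, -0.23 and 0.17 with siTAZ #1 and 0.09 and -0.05 with siTAZ #2. Again the siTAZ libraries were all below the controls, although the siTAZ #1 pair was spread. The difference was -0.58 on the log2 scale (exact permutation test, two-sided, p = 0.0667). The log2 ratio of MTHFD1L to MTHFD1 was 0.40 and 0.56 in siNTC, 0.58 and 0.26 with siTAZ #1 and 0.71 and 0.75 with siTAZ #2. This ratio overlapped the controls with siTAZ #1 and was above them with siTAZ #2. Its difference over the 4 siTAZ libraries was 0.10 (exact permutation test, two-sided, p = 0.6). The smallest p that 4 against 2 libraries allow is 0.0667, and with each siRNA alone it is 0.333, so none of these ratios could pass 0.05.

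**Figure D3:**
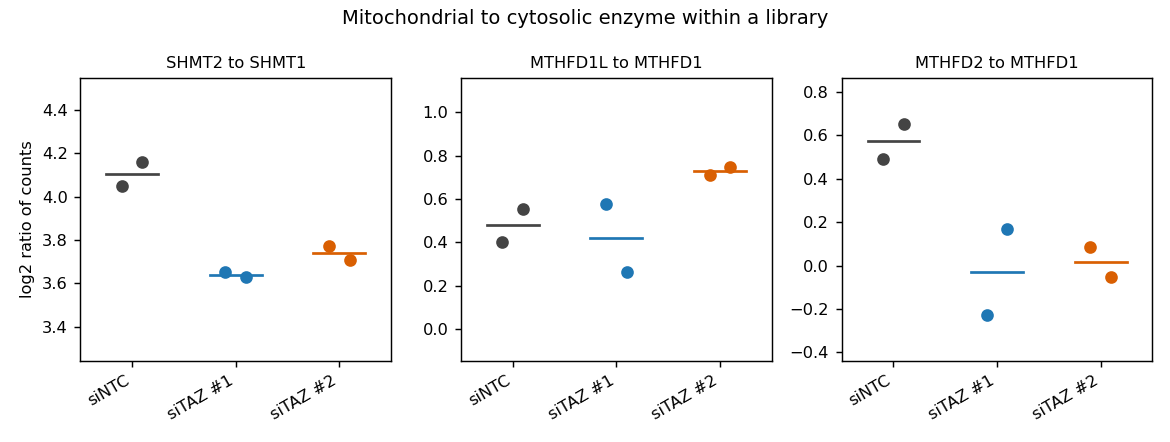
Log2 ratio of the mitochondrial to the cytosolic gene in each library for SHMT2 to SHMT1, MTHFD1L to MTHFD1 and MTHFD2 to MTHFD1, with 1 point per library, a line at each group's mean and axes of equal span that do not start at 0. For SHMT2 to SHMT1 and MTHFD2 to MTHFD1 all 4 siTAZ points lie below both siNTC points, and for MTHFD1L to MTHFD1 the siTAZ #2 points lie above them.

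The siRNAs were also compared directly, since a call with one and not the other is not itself a difference. The level was higher with siTAZ #1 than with siTAZ #2 for 8 of the 10 genes, where 15.2% of the genes tested were called higher, and lower for 0 of them (1 at an unadjusted p under 0.05, PCK2, and 0 with DESeq2 and the exact test), where 13.4% were called lower. The largest differences were in MTHFD1 (1.17 ± 0.09 on the log2 scale, FDR = 0.001) and MTHFD2 (1.14 ± 0.17, FDR = 0.0056). MTHFD1L differed by 0.87 ± 0.11 (FDR = 0.0039), ALDH1L2 by 0.84 ± 0.10 (FDR = 0.0033) and SHMT2 by 0.59 ± 0.08 (FDR = 0.0047). SHMT1 differed by 0.69 ± 0.16 (FDR = 0.028), PHGDH by 0.55 ± 0.14 (FDR = 0.03) and PSAT1 by 0.68 ± 0.20 (FDR = 0.0499). These 3 are the ones that lost the call without siNTC replicate 1, siNTC replicate 2 or siTAZ #2 replicate 2, which left 5 of 10. PSPH and PCK2 did not pass in this comparison. WWTR1 went the other way, with the lower level under siTAZ #1.

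The genes around these enzymes were less uniform. Of the 8 other mitochondrial folate and serine genes, 2 were called lower and 1 higher with siTAZ #1, and 1 lower and 2 higher with siTAZ #2. The shares over all genes tested were 9.78% lower and 10.8% higher with siTAZ #1, and 14.4% and 14.1% with siTAZ #2. Whether the counts of so few genes differ from these shares was not tested. GCAT, the glycine C-acetyltransferase, fell with both (log2 fold change -0.96, FDR = 0.041, and -2.12, FDR = 0.0032). SFXN1, the mitochondrial serine carrier, fell with siTAZ #1 (-0.53, FDR = 0.0086) and had 0.02 with siTAZ #2 (FDR = 0.87), while its relative SFXN3 rose with both (0.61, FDR = 0.015, and 0.42, FDR = 0.034). DHFRL1, a mitochondrial dihydrofolate reductase, rose with siTAZ #2 (0.93, FDR = 0.013). The 3 tested glycine cleavage genes had log2 fold changes of -0.58 to 0.50 with siTAZ #1 and -0.37 to 0.00 with siTAZ #2, and 0 passed with either siRNA in edgeR's test (at an unadjusted p under 0.05, 1 with siTAZ #1, DLD, and 0 with siTAZ #2). Among the other cytosolic folate genes, TYMS, the thymidylate synthase, fell with siTAZ #2 (-0.58, FDR = 0.007) and had 0.25 with siTAZ #1 (FDR = 0.11).

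The pathways that use serine, glycine and one-carbon units had more lower than higher calls. Over all genes tested, 9.78% were called lower and 10.8% higher with siTAZ #1, and 14.4% and 14.1% with siTAZ #2. The lists were not tested as sets. In the list for the methionine cycle and transsulfuration, 4 of 10 tested genes were called lower with siTAZ #1 and 6 with siTAZ #2. With siTAZ #1, 1 was called higher, MTRR (0.52, FDR = 0.041). The 4 include AHCYL1 (-0.55, FDR = 0.0065) and AHCYL2 (-0.67, FDR = 0.036), relatives of AHCY whose place in the cycle was not tested. CBS, which joins serine to homocysteine, fell with both (-0.73, FDR = 0.012, and -1.19, FDR = 0.002), as did AHCY, which releases homocysteine (-0.46, FDR = 0.026, and -0.85, FDR = 0.0029). CTH and MAT2A fell with siTAZ #2 (-1.69, FDR = 0.033, and -0.82, FDR = 0.0022). Neither passed with siTAZ #1 (-0.80, FDR = 0.23, and -0.15, FDR = 0.28). In purine synthesis, 4 of 10 genes were called lower with each siRNA. GART, which takes up a one-carbon unit (-0.59, FDR = 0.0074, and -0.92, FDR = 0.0015), and IMPDH2, of the guanylate branch (-1.34, FDR = 0.0016, and -1.33, FDR = 0.0011), fell with both. IMPDH1 fell with siTAZ #1 (-1.15, FDR = 0.0068) and did not pass with siTAZ #2 (-0.48, FDR = 0.069). PAICS fell with siTAZ #2 (-0.80, FDR = 0.0055) and did not pass with siTAZ #1 (-0.09, FDR = 0.68). Of the 7 tested genes of serine and glycine transport and breakdown, 2 were lower with siTAZ #1 and 4 with siTAZ #2. SLC6A9, a glycine transporter, fell with both (-0.75, FDR = 0.041, and -2.12, FDR = 0.0016). SDSL fell with siTAZ #1 (-1.80, FDR = 0.0069) and did not pass with siTAZ #2 (-0.62, FDR = 0.11). SLC38A1 and SLC1A5 did not pass with siTAZ #1 (0.32, FDR = 0.16, and 0.06, FDR = 0.69). Both fell with siTAZ #2 (-0.70, FDR = 0.015, and -0.58, FDR = 0.0073). PC and ENO1, the 2 tested genes of phosphoenolpyruvate metabolism beside PCK2, were lower with siTAZ #2 (-0.68, FDR = 0.011, and -0.64, FDR = 0.0048) and did not pass with siTAZ #1.

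**Figure D4:**
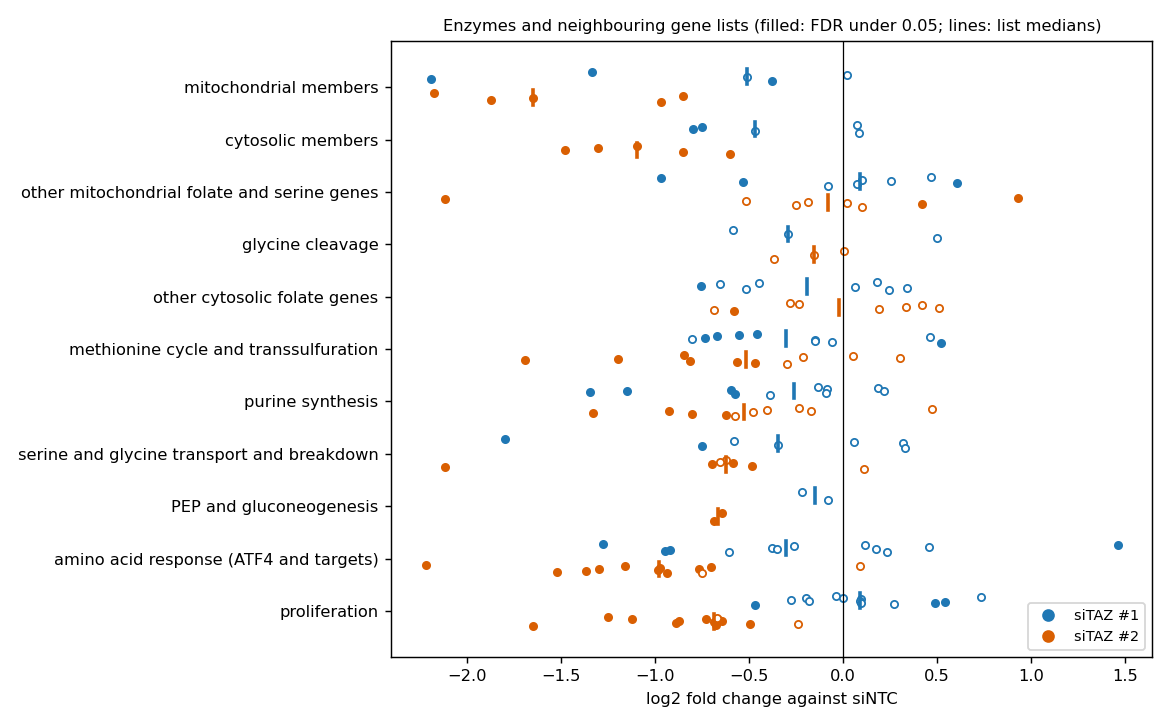
Log2 fold change against siNTC of the tested genes of each list with siTAZ #1 and siTAZ #2, with the 10 enzymes in the top rows, 1 point per gene (filled for an FDR under 0.05) and a line at the median. The medians of the amino acid response genes are -0.30 and -0.98, and those of the proliferation genes are 0.09 and -0.69.

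ATF4 and the proliferation genes moved with siTAZ #2 and not in the same way with siTAZ #1. ATF4 itself had 520 and 534 CPM in siNTC, 594 and 549 with siTAZ #1 and 233 and 239 with siTAZ #2. It was at or above the controls with siTAZ #1 (log2 fold change 0.12 ± 0.08, FDR = 0.34) and fell with siTAZ #2 (-1.16 ± 0.08, FDR = 0.00074), and the direct difference was 1.28 ± 0.08 (FDR = 0.00071). Of the 12 amino acid response genes, 3 were called lower and CEBPB higher with siTAZ #1, and 10 were called lower with siTAZ #2. ASNS, the asparagine synthetase (-1.28, FDR = 0.0068, and -2.22, FDR = 0.0011), SLC7A5, a transporter of large neutral amino acids (-0.92, FDR = 0.0033, and -1.37, FDR = 0.00081), and TRIB3 (-0.95, FDR = 0.01, and -1.52, FDR = 0.002) fell with both, and CEBPB, a factor of the C/EBP family, rose with siTAZ #1 (1.46, FDR = 0.0014). ASNS, SLC7A5 and IMPDH2 are in the study's list drawn from these libraries. The summed level of the 13 proliferation genes was 2312 and 2350 CPM in siNTC, 2422 and 2407 with siTAZ #1 and 1303 and 1241 with siTAZ #2. Of these, 1 was called lower with siTAZ #1, where 2 were called higher, and 11 were called lower with siTAZ #2. CCNB1 and MCM3 fell with siTAZ #2 (-1.25, FDR = 0.00074, and -1.12, FDR = 0.0013). Neither passed with siTAZ #1 (-0.04, FDR = 0.78, and 0.001, FDR = 0.99). For both lists, the shares over all genes tested were 9.78% lower and 10.8% higher with siTAZ #1, and 14.4% lower with siTAZ #2. With siTAZ #1, PCK2, ALDH1L2, PHGDH, PSAT1 and SHMT2 were called lower, as were ASNS, SLC7A5 and TRIB3. The ATF4 transcript and the proliferation sum were not lower there. That sum includes TOP2A, called lower (-0.47, FDR = 0.019), and MKI67, called higher (0.55, FDR = 0.016). Neither ATF4 protein nor cell number was measured in these libraries. In a separate assay that counted HFL-1 cells, the paper reports that TAZ knockdown inhibited proliferation. The levels above are of transcripts at 48 h and do not measure growth. The part of ATF4 and of proliferation in the fall of the serine and folate genes was not tested.

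The genes whose profile over the 6 libraries was most like the mean profile of the 10 enzymes were ANXA2P2 (Pearson r = 1.00), PMS2P1 (0.999), MYOF (0.998), IKBKAP (0.998) and HEBP1 (0.998), out of 10688 genes with a mean of at least 5 CPM. These 6 points share 3 groups, so the values describe a pattern and no more. ANXA2P2 and PMS2P1 are pseudogenes that can take reads from their parent genes. HEBP1 is also in the study's list drawn from these libraries. The enzymes' own r with that mean ran from 0.715 for PCK2 to 0.992 for SHMT2.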

How the data were processed

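RNA of HFL-1 cells was sequenced on an Ion Proton in 6 libraries. The authors used TMAP for alignment to hg19 and HTSeq 0.6.1 for counting by gene. The deposited values are raw read counts, without normalization. The annotation is called Ensembl, the table lists symbols, and the strand setting and counting mode are not given in the sources used here. Of the entries, 13 carried dates in place of symbols and were left out (0.0458% to 0.0506% of counts). Libraries held 15648055 to 32078188 counts.
The analysis used R 4.3.3. After filterByExpr and TMM scaling, edgeR 4.0.16 fitted all 6 libraries together, and 14053 genes were tested by quasi-likelihood in 3 contrasts. The FDR is a Benjamini-Hochberg adjusted p over all genes tested (threshold 0.05). Standard errors were taken from each F statistic, and intervals are at the 0.95 level without adjustment. The series text calls the replicates biological and does not say whether cultures were separate, so p-values measure the spread between these libraries only. The script was tested on simulated data without the genes of the stretch with missing counts, which the main fit kept. That run therefore does not cover their effect on the fit. Positions are from GENCODE on GRCh37 (21478 symbols, 1922 through a synonym).
The 10 genes, the lists and the tests were chosen with earlier results of these data known. Named in the text are these genes, WWTR1, ATF4, the cytosolic counterparts, up to 4 called genes per list with the largest change and the 5 genes of most similar profile. Other genes are named where they explain a count or a sum. The siTAZ #1 calls among the other cytosolic folate genes are not reported here. The alternatives were DESeq2 1.42.0, edgeR's exact test, other scalings and filters, fits of only 4 libraries, the replicate number as a block, each library left out in turn, a fit without the stretch from RANGAP1 to Y, a GC offset (GC known for 95.6% of genes) and an FDR of 0.1. A crossed block was added after seeing the data.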

Additional observations from a re-analysis of the deposited data

Results flagged for a closer look

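The direct comparison of the siRNAs gave a different level for 8 of the 10 genes, with the higher level under siTAZ #1 in each. Over all genes tested, 15.2% were called higher and 13.4% lower with siTAZ #1. The same direction was called for 12 of 13 proliferation genes and 9 of 12 amino acid response genes, so it was not particular to these enzymes. The log2 difference was 0.55 for PHGDH, 0.68 for PSAT1, 0.69 for SHMT1, 0.59 for SHMT2, 1.17 for MTHFD1, 0.87 for MTHFD1L, 1.14 for MTHFD2 and 0.84 for ALDH1L2, all at an FDR under 0.05 by edgeR's quasi-likelihood test. PSAT1 was at the threshold (FDR = 0.0499), and of the 8 only MTHFD1, MTHFD1L and MTHFD2 kept the call under every alternative run. In each of the 8 both siTAZ #1 libraries were above both siTAZ #2 libraries. The share of all genes tested with such a separation was not counted. The siRNAs differed the other way in WWTR1 (-0.70).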

How the results depend on the processing

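All 10 genes were lower with siTAZ #2 in direction under every alternative run, and 8 to 10 were called. The alternatives changed the siTAZ #1 calls more. The count of genes lower with siTAZ #1, 5 as reported, was 2 with edgeR's exact test and 3 with a replicate block, ranged from 2 to 6 when a library was left out, and was 7 with DESeq2. Only ALDH1L2 and PCK2 were called with siTAZ #1 under all 17 alternatives. The count higher with siTAZ #1 than with siTAZ #2, 8 as reported, was 3 with the exact test, 5 with the fit of 4 libraries, 5 with the replicate block and 5 with the crossed block, and ranged from 5 to 9 when a library was left out. At an FDR of 0.1 the count lower in that comparison was 1 (PCK2) in place of 0. MTHFD1, MTHFD1L and MTHFD2 kept that call under all 18 alternatives. The log2 fold change of MTHFD1L with siTAZ #1 turned to -0.0055 with upper-quartile scaling, -0.02 without siNTC replicate 1 and -0.12 without siTAZ #1 replicate 1, and ranged from -0.12 to 0.16 when a library was left out. The siTAZ #1 minus siNTC difference in its log2 ratio to MTHFD1 moved from -0.06 to 0.02 without siNTC replicate 2 and to 0.10 without siTAZ #1 replicate 2. The cause of these changes was not tested. The replicate numbers did not pair the samples (correlation of deviations -0.012, 0.021 and -0.286), and the value of -0.286 led to the crossed block. The genes with missing counts in siTAZ #1 replicate 2 raised edgeR's common dispersion from 0.0163 to 0.0807. With 2 libraries per group, smaller changes could not be detected.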
